A study of Mus musculus with 12 samples.

Results

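Neuropeptides and the receptors of the VIP/PACAP system were followed as a set of 44 genes, out of 52459 genes counted, in RNA from the brains of mice that lack tripeptidyl peptidase 1. The members were taken from a fixed list of symbols: the ligands *Vip* and *Adcyap1* with their 3 receptors, and 39 other genes that code for neuropeptide precursors, peptide hormones or granins, the proteins of the dense-core vesicles in which peptides are stored. No measured value entered the choice by its rule, but the list was drawn up with earlier results of these data known. The 12 libraries came from 2 areas, the cerebellum (Cb) and the combined forebrain and midbrain (F/M), of male mice at 4 months of age. Homozygous *Tpp1-/-* males (T), whose *Tpp1* gene was disrupted by targeting, were set against their wild-type brothers (N), both born from crosses of heterozygous mice, with 3 libraries in each of the groups Cb-N, Cb-T, F/M-N and F/M-T. The disruption is present in every cell of the mouse, and *Tpp1* loss is the cause of a late-infantile form of neuronal ceroid lipofuscinosis, a lysosomal storage disease of the brain. Each library is 1 dissected area as a whole, so fewer cells of a type and less RNA per cell cannot be told apart.

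Neuropeptides are cut from larger precursors inside dense-core vesicles, are released on sustained firing, and act on G protein-coupled receptors at some distance from the site of release. VIP and PACAP, the product of *Adcyap1*, are related peptides: both bind the receptors VPAC1 (gene *Vipr1*) and VPAC2 (gene *Vipr2*), while PAC1 (gene *Adcyap1r1*) prefers PACAP, and all these receptors can raise cyclic AMP in the cell. In the brain VIP marks a class of cortical interneurons and neurons of the suprachiasmatic nucleus, where signalling from VIP to VPAC2 keeps clock neurons in step. The cerebellum is poor in most peptide precursors, whereas hypothalamus, striatum, cortex and brainstem hold many peptide neurons.

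The libraries held 21428379 to 24458189 counts on genes, and the 44 members took 0.146% to 0.217% of them. Levels are given as counts scaled to the size of the library (CPM), with the size corrected by the trimmed mean of M values (TMM), and 3 counts in a library correspond to 0.122 to 0.139 CPM, a limit for counting error alone. *Tpp1* averaged 112 CPM in Cb-N against 29.8 in Cb-T and 90.4 in F/M-N against 23.0 in F/M-T, the log2 fold changes being -1.91 in Cb and -1.94 in F/M, so every group went with its label. The tissue labels were checked on 10 Purkinje cell markers, which summed to 8890 to 9140 CPM in Cb-N and 1110 to 1180 CPM in F/M-N, and on 11 telencephalic markers, which summed to 69.6 to 73.3 CPM in Cb-N and 460 to 473 CPM in F/M-N.

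In the Cb, 15 members rose and 3 fell in T against N, led by the precursors *Pdyn*, *Vip* and *Tac1*, which rose by 15.6-fold, 14.6-fold and 8.48-fold from levels of about 1 CPM or less. A member was called where the false discovery rate (FDR) over all genes tested was below 0.1 and the change at least 1.5-fold, in edgeR's quasi-likelihood test. The 18 called members were among 28 with enough counts to be tested, of which 22 passed the filter on low counts in each group alone and 6 passed it only through Cb-T. All 6 of the latter (*Vip*, *Pdyn*, *Crh*, *Cartpt*, *Gal* and *Grp*) were called higher, which the filter favours, and of the other 22 members 9 rose and 3 fell. Of all 16382 genes tested in the Cb, 11.2% were called, 8.54% as higher and 2.66% as lower. The libraries of T and N did not overlap for 22 of the 28 members, 18 higher and 4 lower in T, where this held for 56.5% of all genes tested, 29% as higher and 27.5% as lower. The median log2 fold change was 0.73 over the 28 members, 0.39 over the 22 that passed in Cb-N alone and 0.012 over all genes tested.

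In F/M the picture was smaller, with 6 members called among 35 tested, the 4 higher ones being *Cort*, *Oxt*, *Gal* and *Pomc* and the 2 lower ones *Vipr2* and *Nmb*. Of all 16665 genes tested there, 3.49% were called, 2.63% as higher and 0.858% as lower. For 14 of the 35 the libraries did not overlap, 6 higher and 8 lower in T, where this held for 37.4% of all genes tested, 12.4% as higher and 25% as lower. The median log2 fold change of the members in F/M was 0.06, beside 0.0078 over all genes. The response of 17 members differed between the areas in the test of the tissue-by-genotype interaction, the log2 fold change in Cb minus that in F/M, among 35 members tested. The difference was positive for 16 of them and negative for *Gnrh1*, where 7.61% of all 17482 genes were called, 6.41% as positive and 1.2% as negative. Without *Avp* and *Hcrt*, which were at 0 in a whole group, the median difference was 0.76 over 33 members, beside 0.027 over all genes. Over the 21 members that passed the filter in each of the 4 groups it was 0.66, with 9 called as positive and 1 as negative.

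Control tissue set the scale for these changes. Between Cb-N and F/M-N 32 of 35 tested members were called, 28 of them lower in Cb-N, where 42% of all 16725 genes were called, 19.2% as higher and 22.8% as lower in Cb-N. The median log2 ratio of Cb-N to F/M-N was -2.88 over the members, also with *Avp* at its bound, and 0.0092 over all genes. The 4 members higher in Cb-N were *Vipr2*, *Gnrh1*, *Npff* and *Chgb*. This comparison shares the Cb-N libraries with that of Cb-T and Cb-N, and 13 of its 35 members passed the filter only through F/M-N, all of them called lower in Cb-N, which the filter favours. Of the 22 members that passed in both control groups 15 were lower and 4 higher in Cb-N, with a median log2 ratio of -0.95.

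**Figure D1:**
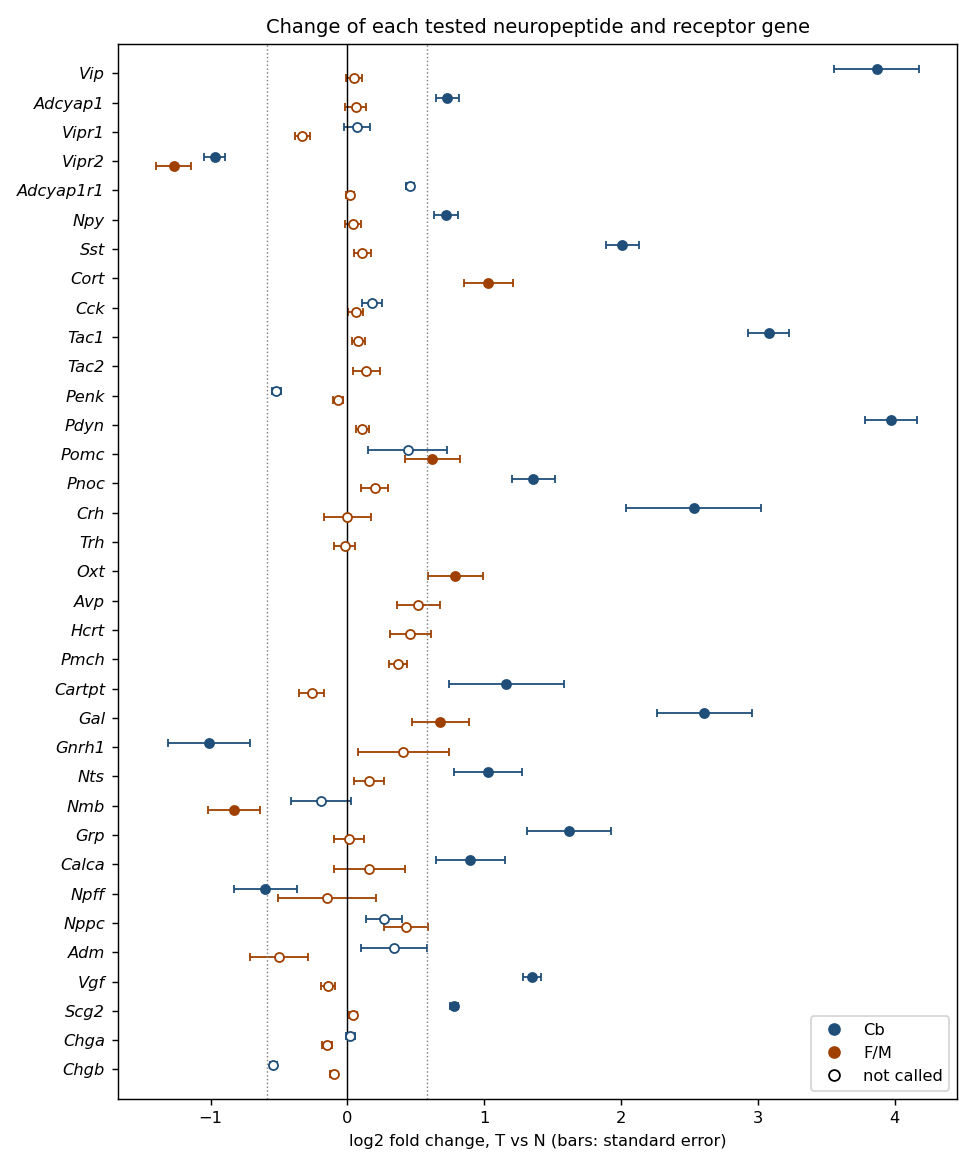
Log2 fold change of T against N (x axis) for each member tested in Cb (blue) or F/M (brown), ordered by role from top to bottom; bars are standard errors, filled points were called, and dotted lines mark a 1.5-fold change. In Cb the points of *Pdyn*, *Vip* and *Tac1* lie farthest to the right at 3.97, 3.87 and 3.08, while *Vipr2* lies left of the line in both areas at -0.97 and -1.27.

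*Vip* was almost silent in control Cb and became clearly measurable in T. The 3 Cb-N libraries held 7, 3 and 2 counts of *Vip*, or 0.309, 0.137 and 0.0924 CPM, and the 3 Cb-T libraries held 67, 70 and 60 counts, or 2.82, 2.85 and 2.49 CPM. Every Cb-T library was above every Cb-N library, with a log2 fold change of 3.87 (SE 0.31, n = 3 per group, FDR 3.4e-14 by edgeR). The low control counts made the size uncertain, since the value was 4.50 without the library Cb-N1. In F/M, where *Vip* is a gene of cortical interneurons, its levels were 36.1, 31.6 and 30.5 CPM in N and 33, 32.4 and 33.6 CPM in T. These groups overlapped, with a log2 fold change of 0.05 (SE 0.058, FDR 0.58 by edgeR), and the difference between the areas was 3.84 (SE 0.31, FDR 5.8e-11). The level in Cb-T stayed far under that of F/M, and the gain of 2.54 CPM was 7.77% of the mean level in F/M-N, 32.7 CPM.

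*Adcyap1*, the precursor of PACAP, was measured at 10.3, 9.27 and 8.87 CPM in Cb-N and at 16.4, 14.3 and 16.6 CPM in Cb-T. The groups did not overlap and *Adcyap1* rose by 1.66-fold in Cb (log2 fold change 0.73, SE 0.083, FDR 5.5e-10). In F/M the libraries overlapped, with 21.3, 19.0 and 20.7 CPM in N and 23.3, 20.4 and 18.2 CPM in T (log2 fold change 0.06, SE 0.077, FDR 0.64). The difference between the areas was 0.69 (SE 0.12, FDR 5.7e-05). Unlike *Vip*, *Adcyap1* was already well expressed in control Cb, where its level was lower than in F/M-N by 2.14-fold.

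Of the receptors, *Vipr2*, which codes for VPAC2, was the only one of the 5 genes of the system that was called in both areas, and it fell in each. Its levels in Cb were 17.4, 18.1 and 19.1 CPM in N and 9.51, 8.88 and 9.52 CPM in T, without overlap (log2 fold change -0.97, SE 0.076, FDR 1.9e-14). In F/M, *Vipr2* was at 6.49, 6.34 and 5.78 CPM in N and at 2.80, 2.31 and 2.39 CPM in T, again without overlap (log2 fold change -1.27, SE 0.13, FDR 5.9e-07). The test of the difference between the areas gave 0.32 (SE 0.15, FDR 0.12). *Vipr2* was also the receptor of this system with more RNA in control Cb than in control F/M, by 2.95-fold.

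*Adcyap1r1*, the PAC1 gene, was the most abundant receptor of the system per kilobase of exon, with 22.9 CPM per kb in Cb-N against 4.08 for *Vipr2* and 1.37 for *Vipr1*. It was measured at 152, 155 and 146 CPM in Cb-N and at 202, 213 and 208 CPM in Cb-T. The groups did not overlap, but the change of 1.38-fold was below the fold limit (log2 fold change 0.46, SE 0.028, FDR 5.8e-18). In F/M its levels of 276, 279 and 269 CPM in N and 264, 278 and 273 CPM in T overlapped (log2 fold change 0.02, SE 0.030, FDR 0.62).

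*Vipr1*, the VPAC1 gene, was at 7.89, 7.99 and 7.99 CPM in Cb-N and at 7.74, 9.61 and 7.73 CPM in Cb-T, where the libraries overlapped (log2 fold change 0.07, SE 0.098, FDR 0.56). In F/M it was at 27.5, 29.8 and 29.1 CPM in N and at 21.9, 22.3 and 22.8 CPM in T. Every F/M-T library was below every F/M-N library, with a change under the fold limit (log2 fold change -0.33, SE 0.056, FDR 0.00029).

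**Figure D2:**
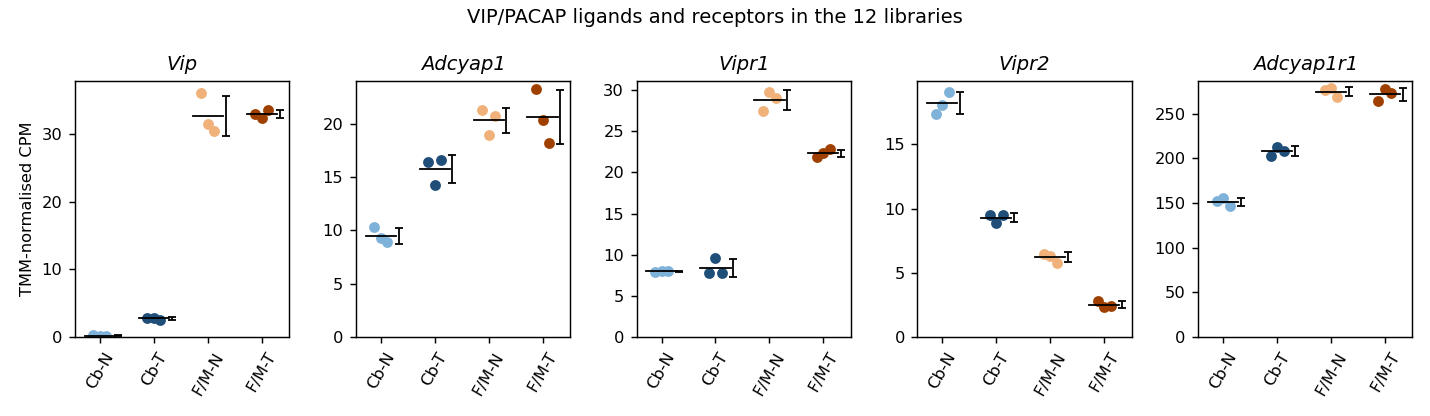
TMM-normalised CPM of the 5 genes of the VIP/PACAP system in the 12 libraries by group; points are libraries, horizontal lines are group means and the bars beside them 1 SD (n = 3). *Vip* rises from 0.179 to 2.72 CPM on average in Cb beside 32.7 CPM in F/M-N, and *Vipr2* is lower in T than in N in both areas.

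Since the receptors of this system act through cyclic AMP, the start regions of the members were searched for the cyclic AMP response element (CRE), the sequence bound by CREB. RefSeq windows on GRCm38.p6, from 250 bases before to 50 bases after a gene's start, were on hand for 33 members. The full palindrome TGACGTCA was found in 5 of the 33 genes (15.2%) and in 2.03% of all 27025 genes with a window, or 1.79% of all windows. The shorter TGACG, or CGTCA on the other strand, which lies within the full element too, was found in 18 of the 33 (54.5%) and in 23.0% of all genes. As another frequent element, the E-box CACGTG was found in 4 of the 33 (12.1%) and in 8.09% of all genes. A match is a run of letters and no measure of binding. The stretches below show the 5 full elements, and after them the incomplete elements of the 2 ligands *Vip* and *Adcyap1*, with the element in capitals and each stretch read along the gene's own strand:
Sst: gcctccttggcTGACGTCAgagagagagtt
Scg2: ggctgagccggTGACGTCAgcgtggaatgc
Chgb: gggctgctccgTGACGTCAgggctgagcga
Cartpt: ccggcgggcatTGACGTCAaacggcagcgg
Ucn: atgttcttcgcTGACGTCAgtcggagctgt
Vip: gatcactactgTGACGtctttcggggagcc
Adcyap1: gactaggatgcTGACGtcttttactgatac

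The *Sst* stretch lies at chr16:23890874-23890903 on the minus strand with its element 48 bases before the start, and that of *Scg2* at chr1:79440076-79440105 on the minus strand, 68 bases before it. *Chgb* has its stretch at chr2:132781559-132781588 on the plus strand, 72 bases before the start, and *Cartpt* at chr13:99900777-99900806 on the minus strand, 112 bases before it. For *Ucn* it is chr5:31138921-31138950 on the minus strand, 44 bases before the start. The stretches of *Vip*, chr10:5639128-5639157, and *Adcyap1*, chr17:93198915-93198944, are on the plus strand, with TGACG 79 and 91 bases before the start. These distances are from a RefSeq start, and the *Adcyap1* TGACG also lies 242 bases before another RefSeq start of that gene. In GENCODE M21 some transcripts start farther upstream, and the stretches of *Sst*, *Scg2*, *Chgb* and *Cartpt* lie in a 5′ untranslated exon of 1 annotated transcript each, while those of *Ucn*, *Vip* and *Adcyap1* lie outside the annotated gene. In Cb, genes with the full element moved in different ways: *Sst*, *Scg2* and *Cartpt* rose, *Chgb* was lower by less than the fold limit, and *Ucn* was too low to be tested.

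Among the peptides of cortical and striatal interneurons, *Sst* and *Npy* rose in Cb. *Sst*, the somatostatin precursor, went from 2.29, 2.78 and 3.23 CPM in Cb-N to 11.7, 12.2 and 9.60 CPM in Cb-T, without overlap (log2 fold change 2.01, SE 0.12, FDR 5.4e-18). *Npy*, the precursor of the appetite and stress peptide NPY, went from 7.37, 7.07 and 7.53 CPM to 12.5, 12 and 11.8 CPM, again without overlap (log2 fold change 0.72, SE 0.088, FDR 2.8e-09). In F/M both were far higher. There *Sst* was at 93.3, 104 and 120 CPM in N and 107, 112 and 115 CPM in T, and *Npy* at 30.6, 34.9 and 35.9 CPM in N and 35.1, 32.2 and 34.5 CPM in T, with overlap between T and N for both. The F/M log2 fold changes were 0.11 for *Sst* (FDR 0.20) and 0.04 for *Npy* (FDR 0.65). The differences between the areas were 1.92 for *Sst* (FDR 5.7e-10) and 0.70 for *Npy* (FDR 6.8e-06).

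*Cck*, a precursor made by cortical pyramidal cells and interneurons, was not called. Its Cb levels were 14.7, 15.6 and 17.9 CPM in N and 17.2, 18.7 and 18.7 CPM in T, with overlap, and its log2 fold change of 0.18 (SE 0.071, FDR 0.032) was below the fold limit. *Cort*, the cortistatin precursor, had 0 to 2 counts in every Cb library and was not tested in Cb. Its level rose in F/M from 1.39, 1.44 and 2.04 CPM in N to 3.37, 3.02 and 3.37 CPM in T, without overlap (log2 fold change 1.03, SE 0.18, FDR 3.0e-04).

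The tachykinin gene *Tac1* codes for substance P. It was at 1.01, 1.10 and 0.832 CPM in Cb-N and at 8.58, 8.60 and 7.90 CPM in Cb-T, so the lowest T library was far above the highest N library (log2 fold change 3.08, SE 0.15, FDR 5.3e-21). In F/M the libraries overlapped at 43.6, 41.4 and 43.8 CPM in N and 45.4, 42.9 and 44.6 CPM in T (log2 fold change 0.08, FDR 0.21). The difference between the areas was 3.02 (SE 0.14, FDR 3.1e-16). *Tac2*, the neurokinin B precursor, was too low in Cb to be tested, with 2, 0 and 1 counts in N and 3, 7 and 2 counts in T. That is a ratio of 3.66 with an exact 95% interval of 0.988 to 20.2 from counting alone.

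The 4 opioid-family precursors split. *Pdyn*, the dynorphin precursor, showed the largest fitted change of the tested members in Cb. It was at 0.573, 0.228 and 0.647 CPM in Cb-N and at 7.57, 7.33 and 7.98 CPM in Cb-T, with no overlap (log2 fold change 3.97, SE 0.19, FDR 2.8e-21). In F/M it was at 38.3, 36.0 and 38.5 CPM in N and 41.2, 38.5 and 39.2 CPM in T, just without overlap and below the fold limit (log2 fold change 0.11, SE 0.049, FDR 0.11), and the difference between the areas was 3.87 (SE 0.19, FDR 6.0e-16). *Pnoc*, the nociceptin precursor, rose from 1.46, 1.78 and 1.80 CPM to 4.54, 4.03 and 4.37 CPM in Cb, also without overlap (log2 fold change 1.36, SE 0.16, FDR 1.4e-09). In F/M, *Pnoc* overlapped at 8.89, 7.41 and 9.82 CPM in N and 9.58, 9.91 and 9.72 CPM in T. Its F/M log2 fold change was 0.20 (FDR 0.16) and the difference between the areas 1.18 (SE 0.18, FDR 1.4e-05).

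*Penk*, the enkephalin precursor, which cerebellar Golgi cells are known to express, went the other way in Cb. It was at 114, 116 and 118 CPM in N and at 77.9, 82.6 and 81.7 CPM in T, without overlap, though the change of 1.43-fold was below the fold limit (log2 fold change -0.52, SE 0.033, FDR 1.5e-17). In F/M its log2 fold change was -0.07 (FDR 0.17). Of the *Penk* exon bases 14.3% are shared with a gene on the opposite strand, and the sources used here do not state whether the counting used strand.

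*Pomc*, the precursor of melanocortins and beta-endorphin, was at 0.617, 0.730 and 0.693 CPM in Cb-N and at 0.925, 0.815 and 1.04 CPM in Cb-T, without overlap (log2 fold change 0.44, SE 0.29, FDR 0.20). In F/M it was at 1.96, 2.07 and 1.78 CPM in N and at 3.72, 2.93 and 2.05 CPM in T. The call in F/M (log2 fold change 0.62, SE 0.20, FDR 0.032) rested on overlapping libraries. It was lost without F/M-T1, where the value was 0.40, without F/M-N3, where it was 0.56, and under limma-voom, where it was 0.58, and its FDR ranged from 0.0054 to 0.22 over 13 other settings.

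Of the stress-axis peptides, *Crh*, the corticotropin-releasing hormone gene, rose in Cb from 2, 2 and 3 counts (0.0882, 0.0913 and 0.139 CPM) in N to 14, 15 and 17 counts (0.589, 0.611 and 0.707 CPM) in T. The groups did not overlap (log2 fold change 2.53, SE 0.49, FDR 3.0e-05). In F/M, *Crh* overlapped at 2.70, 2.92 and 3.31 CPM in N and 2.80, 2.35 and 3.58 CPM in T, with a log2 fold change of 0.00 (SE 0.17), and the difference between the areas was 2.54 (SE 0.51, FDR 0.00035). *Ucn*, which codes for the related peptide urocortin, had no count in any Cb-N library and 12, 7 and 8 counts in Cb-T, too few for the test. Its mean in Cb-T, 0.374 CPM, was at least 2.69-fold higher than the floor of 3 counts per library.

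*Gal*, the galanin precursor, was called in both areas. In Cb it went from 0.0882, 0.320 and 0.277 CPM in N to 1.30, 1.43 and 1.5 CPM in T, without overlap (log2 fold change 2.61, SE 0.35, FDR 3.1e-08). In F/M it was at 1.52, 1.98 and 2.80 CPM in N and at 4.20, 3.10 and 2.60 CPM in T, with overlap (log2 fold change 0.68, SE 0.21, FDR 0.025). The F/M call was lost without F/M-N1, where the value was 0.49, and without F/M-T1, where it was 0.47, and the FDR ranged from 0.00078 to 0.18 over the settings. The difference between the areas was 1.95 (SE 0.46, FDR 0.0023).

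*Cartpt*, the precursor of the CART peptides, rose in Cb from 0.265, 0.365 and 0.139 CPM to 0.757, 0.530 and 0.457 CPM, without overlap (log2 fold change 1.16, SE 0.42, FDR 0.020). With 3 to 18 counts per library this call was lost without Cb-N3, where the value was 0.87, and without Cb-T1, where it was 0.92, and the FDR ranged from 0.015 to 0.13. In F/M, *Cartpt* was at 13.6, 12.5 and 16.4 CPM in N and 12.5, 11.2 and 11.2 CPM in T (log2 fold change -0.26, SE 0.092, FDR 0.055), below the fold limit. The difference between the areas was 1.43 (SE 0.44, FDR 0.016). It missed the limit without Cb-T1, at 1.15, with an FDR range of 0.0057 to 0.10 over the settings.

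*Gnrh1*, the gonadotropin-releasing hormone gene, fell in Cb from 1.41, 1.23 and 0.878 CPM in N to 0.547, 0.448 and 0.748 CPM in T, without overlap (log2 fold change -1.01, SE 0.30, FDR 0.0037). In F/M it was at 0.610, 0.539 and 0.722 CPM in N and 0.788, 0.496 and 1.15 CPM in T, with overlap (log2 fold change 0.41, SE 0.33, FDR 0.42). The difference between the areas was -1.40 (SE 0.45, FDR 0.024) and lost its call without F/M-T3, at -1.06, with an FDR between 0.0074 and 0.13 over the settings. Control Cb held more *Gnrh1* than control F/M, by 1.88-fold.

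The other hypothalamic peptides were close to 0 in Cb, below the filter, and apart from *Agrp* they could be tested in F/M. *Trh*, the thyrotropin-releasing hormone gene, had 0, 1 and 0 counts in Cb-N and 5, 4 and 3 counts in Cb-T, a ratio of 11 with an exact 95% counting interval of 1.63 to 470. In F/M it was at 12.1, 14.0 and 14.0 CPM in N and 12.6, 13.1 and 12.9 CPM in T (log2 fold change -0.02, FDR 0.89). Its interaction value of 3.10 (SE 0.93, FDR 0.015) rests on these few Cb counts and was 5.04 without Cb-N2, the library with the only control count.

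*Oxt*, the oxytocin gene, was called in F/M at 3.05, 2.34 and 5.06 CPM in N and 6.74, 4.63 and 6.39 CPM in T, groups that overlapped (log2 fold change 0.79, SE 0.20, FDR 0.0066). The call was lost under DESeq2 at an FDR of 0.13 and without F/M-N2, where the value was 0.58, while the FDR over 13 other settings ranged from 5.2e-08 to 0.13. In Cb, *Oxt* had 1, 4 and 3 counts in N and 2, 1 and 1 counts in T and was not tested. *Avp*, the vasopressin gene, was at 4.23, 2.65 and 4.72 CPM in F/M-N and 5.16, 5.16 and 5.97 CPM in F/M-T, without overlap and below the fold limit (log2 fold change 0.52, FDR 0.022). *Hcrt* (orexin) and *Pmch* (melanin-concentrating hormone), both of lateral hypothalamic neurons, had F/M log2 fold changes of 0.46 (FDR 0.038) and 0.37 (FDR 0.00054), below the limit as well. For *Pmch* 58.1% of the exon bases are shared with a gene on the opposite strand.

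Of 5 tested peptides known from sensory and brainstem neurons, 3 rose and 1, *Npff*, fell in Cb, where 8.54% of all genes were called higher and 2.66% lower. *Nts*, the neurotensin precursor, went from 0.882, 0.685 and 0.878 CPM to 1.51, 2.00 and 1.5 CPM, without overlap (log2 fold change 1.03, SE 0.25, FDR 0.00049). *Grp*, the gastrin-releasing peptide gene, went from 0.309, 0.365 and 0.508 CPM to 1.22, 1.26 and 1.16 CPM, without overlap (log2 fold change 1.62, SE 0.31, FDR 2.6e-05). *Calca*, which codes for calcitonin gene-related peptide in neurons, went from 1.10, 0.867 and 0.693 CPM to 1.22, 1.79 and 2.00 CPM, and the groups just did not overlap (log2 fold change 0.90, SE 0.25, FDR 0.0023). The F/M libraries of T and N overlapped for all 3. *Nts* was at 7.71, 8.63 and 7.86 CPM in F/M-N and 8.01, 7.73 and 10.7 CPM in F/M-T, and its log2 fold change there was 0.16 (FDR 0.33). *Grp* was at 8.02, 6.25 and 7.18 CPM in F/M-N and 7.22, 7.52 and 6.27 CPM in F/M-T, where its log2 fold change was 0.01 (FDR 0.97). *Calca* was low in F/M as well, at 0.871, 1.44 and 1.40 CPM in N and 1.01, 1.74 and 1.28 CPM in T (log2 fold change 0.16, FDR 0.70). The differences between the areas were 0.89 for *Nts* (FDR 0.020) and 1.63 for *Grp* (FDR 0.00023), while that of *Calca*, 0.76, was not called (FDR 0.15).

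*Npff*, the neuropeptide FF precursor, was called lower in Cb although its libraries overlapped, at 2.03, 1.41 and 1.85 CPM in N and 0.925, 1.59 and 0.956 CPM in T (log2 fold change -0.60, SE 0.23, FDR 0.028). The call was lost without any one of 4 libraries, with values of -0.49 without Cb-N1, -0.58 without Cb-N3, -0.47 without Cb-T1 and -0.49 without Cb-T3, and the FDR ranged from 0.0057 to 0.13. A gene annotated on the same strand shares 32.6% of the *Npff* exon bases, so that reads could have been split or lost. In F/M, *Npff* was at 0.566, 0.674 and 0.467 CPM in N and 0.700, 0.330 and 0.469 CPM in T, with overlap (log2 fold change -0.15, FDR 0.80). *Nmb*, the neuromedin B gene, was at 2.29, 1.41 and 1.53 CPM in Cb-N and at 1.72, 1.39 and 1.5 CPM in Cb-T, with overlap (log2 fold change -0.19, FDR 0.49). In F/M, *Nmb* fell from 2.40, 2.65 and 2.63 CPM to 1.66, 1.45 and 1.11 CPM, without overlap (log2 fold change -0.83, SE 0.19, FDR 0.0036), and here 20.6% of the exon bases are shared with *Sec11a* on the same strand.

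Of the vascular and natriuretic peptides, *Nppc* and *Adm* could be tested and were below the fold limit in both areas. *Nppc*, the C-type natriuretic peptide gene, had log2 fold changes of 0.27 in Cb (SE 0.13, FDR 0.090) and 0.43 in F/M (SE 0.16, FDR 0.061). *Adm*, the adrenomedullin gene, was at 1.10, 0.913 and 1.16 CPM in Cb-N and at 1.09, 1.39 and 1.54 CPM in Cb-T, and at 1.79, 1.80 and 1.74 CPM in F/M-N and 1.01, 1.32 and 1.32 CPM in F/M-T. The Cb groups overlapped and the F/M groups did not. Its log2 fold changes of 0.34 (FDR 0.25) and -0.50 (FDR 0.092) differed between the areas by 0.86 (SE 0.31, FDR 0.041). That call was lost under DESeq2, at 0.84, and without F/M-T1, Cb-N2 or Cb-T3, at 0.75, 0.76 and 0.70, with the FDR between 0.035 and 0.14.

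The granins and *Vgf*, which are sorted into dense-core vesicles with the peptides, did not move as 1 group. *Vgf*, whose gene is induced by neuronal activity and growth factors, rose in Cb from 12.4, 12.3 and 14.0 CPM to 35.6, 33.2 and 30.2 CPM (log2 fold change 1.35, SE 0.067, FDR 3.2e-21). *Scg2*, the secretogranin II gene, rose from 162, 163 and 171 CPM to 283, 281 and 286 CPM (log2 fold change 0.78, SE 0.027, FDR 1.1e-26). Neither pair of groups overlapped. *Chgb*, the chromogranin B gene, was lower in Cb-T at 577, 574 and 593 CPM, against 835, 837 and 866 CPM in Cb-N, and missed the fold limit with 1.45-fold (log2 fold change -0.54, SE 0.023, FDR 1.2e-23). *Chga*, the chromogranin A gene, overlapped at 117 to 123 CPM in N and 118 to 128 CPM in T (log2 fold change 0.02, FDR 0.65).

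Per kilobase of exon, *Chgb* was the highest member in every group, with mean levels of 309 CPM per kb in Cb-N and 212 in Cb-T, while *Scg2* stood at 65.6 and 113. In F/M the log2 fold changes of the 4 genes lay between -0.15 and 0.04. *Vgf* was at 153, 163 and 184 CPM in F/M-N and 145, 145 and 151 CPM in F/M-T, without overlap and below the fold limit (log2 fold change -0.14, FDR 0.044). *Scg2* overlapped there at 347, 332 and 340 CPM in N and 348, 334 and 340 CPM in T (log2 fold change 0.04, FDR 0.31). The differences between the areas were 1.52 for *Vgf* (SE 0.094, FDR 1.4e-13) and 0.76 for *Scg2* (SE 0.039, FDR 2.2e-15), and that of *Chgb*, -0.42, was below the fold limit (FDR 9.6e-11).

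Each rise in Cb was set against the level of the gene in control F/M, the only area sampled outside the cerebellum. The control ratio of F/M-N to Cb-N was largest among the 15 risen members for *Vip*, at 182, with means of 32.7 and 0.179 CPM, and next for *Pdyn*, at 77.9, with means of 37.6 and 0.483 CPM. It was 2.15 for *Adcyap1*, 2.06 for *Scg2* and 1.39 for *Calca*. For *Avp*, with no count in Cb-N, F/M-N was at least 27.8-fold higher than the floor. Written as a share of the F/M-N level, the gain of the 15 risen members in Cb-T had a median of 17.2% and ran from 2.29% for *Cartpt* to 63.2% for *Calca*. It was 7.92% for *Sst*, 10.6% for *Nts*, 11.5% for *Grp*, 12% for *Vgf* and 14.1% for *Npy*. *Tac1*, *Crh* and *Pdyn* lay close together at 17.2%, 17.8% and 19.0%, and *Pnoc*, *Adcyap1*, *Scg2* and *Gal* were higher at 30.3%, 30.9%, 34.8% and 56.2%. Among all genes, 488 rose in Cb and had a control level in F/M at least 4-fold that in Cb. Over these the median share was 12.6%, ranging from 0.258% to 427%. The 4-fold limit was not set for the 15 members. *Adcyap1*, *Scg2* and *Calca* fall below it and had shares above the members' median, so the 2 medians are of unlike sets. Without that limit the median share was 13% over the 19 risen peptide receptors, 17.4% over 3 striatal markers and 34.2% over 4 cholinergic and motor markers. It was 67.7% over 7 midbrain and thalamic markers and 189% over 5 monoamine markers. Over 8 microglial markers it was 87.8%, and over 3 astrocyte markers 319%. The differences between these shares were not tested.

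**Figure D3:**
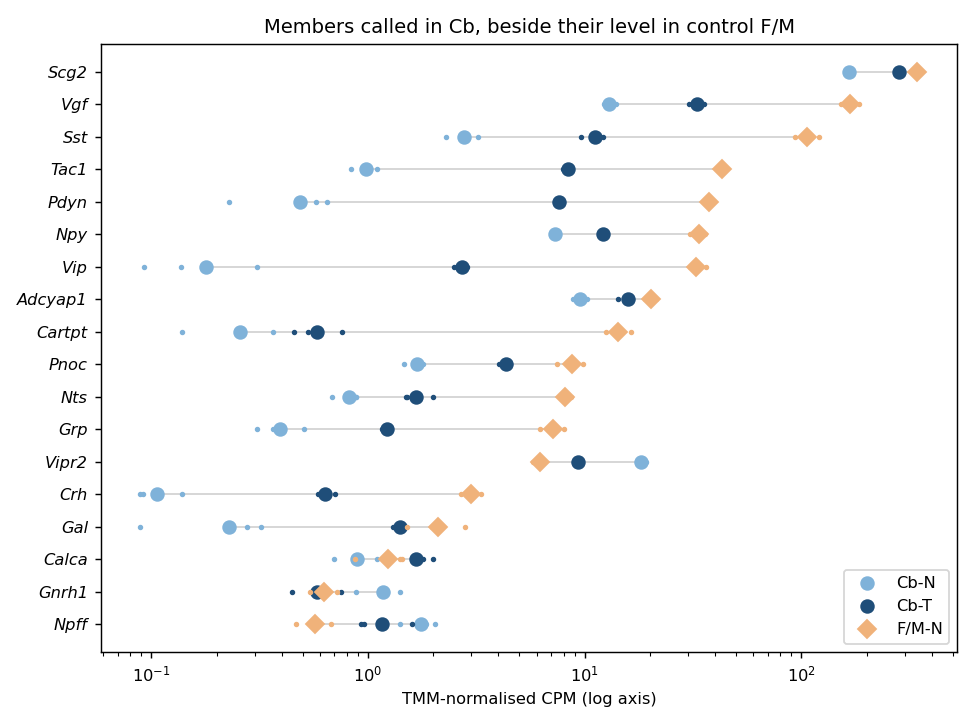
Mean TMM-normalised CPM (log axis) of the 18 members called in Cb, for Cb-N, Cb-T and F/M-N; small points are the 3 libraries of each group. *Vip*, *Pdyn* and *Tac1* lie at 2.72, 7.63 and 8.36 CPM in Cb-T, between a low Cb-N level and a much higher F/M-N level, whereas *Vipr2* runs from 18.2 CPM in Cb-N down to 9.30 CPM in Cb-T and 6.20 CPM in F/M-N.

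Markers of tissue outside the cerebellum moved in the same libraries. The 15 Hox genes listed, which mark the hindbrain caudal to the cerebellum and the spinal cord, summed to 0.370 to 0.593 CPM in Cb-N and 14.3 to 14.8 CPM in Cb-T, and 7 of the 15 had no count in any Cb-N library. The 10 that were tested passed the filter only through Cb-T and rose, where 8.54% of all genes tested in Cb were called higher. The 5 with the largest fitted changes were *Hoxb5*, *Hoxc4*, *Hoxc5*, *Hoxb6* and *Hoxa5*, with means of 2.55, 1.04, 0.757, 0.745 and 2.24 CPM in Cb-T. Of these *Hoxa5* had 3 counts in all of Cb-N and the others had none. In F/M the Hox genes summed to at most 0.0850 CPM. The 8 cholinergic and motor markers summed to 1.32 to 1.54 CPM in Cb-N and 8.92 to 9.55 CPM in Cb-T, with 5 of 5 tested higher, 4 of which passed the filter only through Cb-T. Among them were *Slc18a3*, with 2 counts in all of Cb-N and 60 in Cb-T, *Chat* (log2 fold change 3.81), *Slc5a7* (2.83) and *Prph* (1.46). The 8 midbrain and thalamic markers summed to 14.7 to 15.7 CPM in Cb-N and 63.9 to 70.4 CPM in Cb-T, with 7 of 8 higher, 5 of them through the filter in Cb-T alone. The 5 largest fitted changes were those of *Tfap2d* and *Pou4f2*, with 2 counts each in all of Cb-N and 241 and 107 in Cb-T, of *Pou4f1* (log2 fold change 3.49), *Lhx9* (3.40) and *Gata3* (3.34). The 9 monoamine markers summed to 19.3 to 21.6 and 51.6 to 58.3 CPM, with 6 of 7 higher, 1 of them through Cb-T alone, led by *Slc18a2* (log2 fold change 3.70), *Dbh* (3.62), *Slc6a2* (3.10), *Slc6a4* (2.53) and *Tph2* (1.70). In each of these lists every Cb-T library was above every Cb-N library. The part of such tissue in the rises of *Vip* and the other members in Cb was not tested.

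In other lists 1 gene made up most of the sum. The 11 telencephalic markers summed to 69.6 to 73.3 CPM in Cb-N and 56.6 to 62.8 CPM in Cb-T, and without *Bhlhe22* the other 10 summed to 8.95 to 9.54 and 8.50 to 10.1 CPM. *Lhx2* was the 1 called of 5 tested and passed the filter only through Cb-T. The 7 striatal markers summed to 160 to 171 and 164 to 166 CPM, but without *Ppp1r1b* the other 6 went from 7.67 to 8.73 CPM in Cb-N to 19.8 to 20.4 CPM in Cb-T, and *Six3*, *Drd2* and *Drd1* rose, of which *Six3* and *Drd1* passed the filter only through Cb-T. The 7 hypothalamic markers summed to 8.32 to 8.81 and 8.98 to 9.53 CPM, of which *Hdc* made up nearly all. Without *Hdc* the other 6 summed to at most 0.0462 CPM in Cb-N and to 0.204 to 0.337 CPM in Cb-T, where 4 were at 0 in every library and *Otp* had 7, 5 and 5 counts against none in Cb-N. The log2 fold changes of 7 choroid plexus markers lay between -0.34 and 0.57, and those of 8 meningeal and vascular markers between -0.45 and 0.31.

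Markers of cerebellar neurons and of glia also differed in level between the Cb groups. The 10 Purkinje cell markers summed to 8890 to 9140 CPM in Cb-N and 7450 to 7640 CPM in Cb-T, and each of the 10 was lower in every T library than in every N library, with log2 fold changes from -0.31 to -0.06, below the fold limit. The 9 granule cell markers summed to 6650 to 6730 CPM in Cb-N and 5550 to 5640 CPM in Cb-T. Microglial markers rose in 8 of 10 cases, where 8.54% of all genes tested in Cb were called higher. They went from 131 to 142 CPM in sum in Cb-N to 387 to 408 CPM in Cb-T. The rises were led by *Cd68* (log2 fold change 3.13), *Tyrobp* (2.93), *Trem2* (2.67) and *Aif1* (1.90). The 10 astrocyte markers summed to 6410 to 6430 CPM in Cb-N and 8350 to 8480 CPM in Cb-T. Of these 3 were called, all higher, *Serpina3n* (4.33), *Gfap* (2.91) and *Aqp4* (0.79), and the median log2 fold change of the 10 was 0.33. The part of these cells in the changes of the members was not tested.

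**Figure D4:**
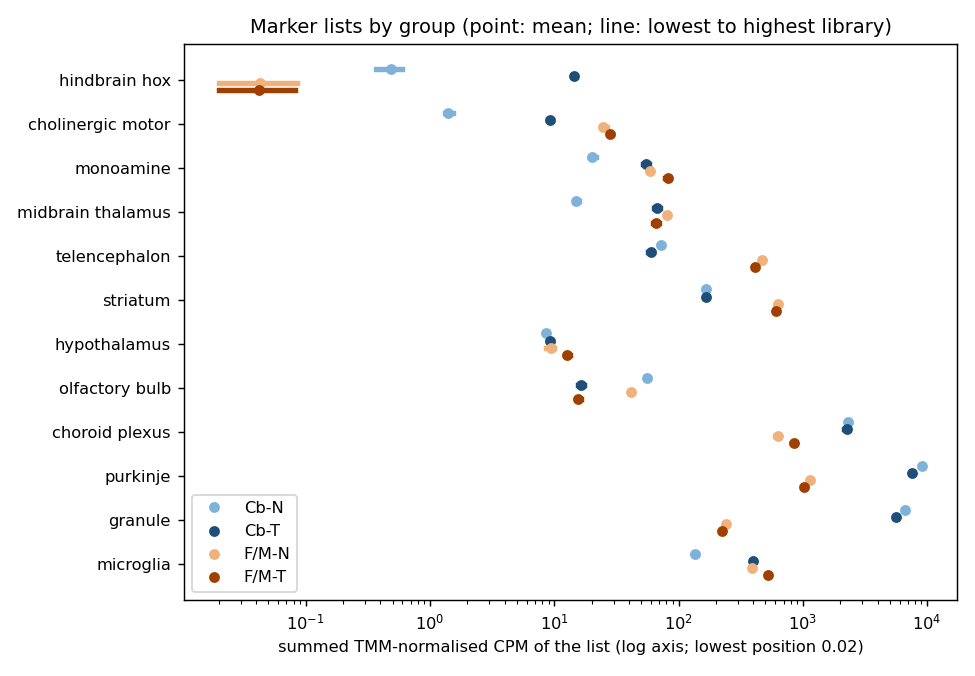
Summed TMM-normalised CPM (log axis, with sums under 0.02 drawn at 0.02) of 12 marker lists in the 4 groups; points are group means and lines run from the lowest to the highest of 3 libraries. The Hox list lies at a mean of 0.483 CPM in Cb-N and at 14.5 CPM in Cb-T, and the olfactory bulb list falls from a mean of 41.3 to 15.6 CPM in F/M.

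In F/M the peptide genes *Oxt*, *Gal* and *Pomc* were called on overlapping libraries. The 8 tested members grouped as hypothalamic, without *Pomc*, had log2 fold changes from -0.26 to 0.79 there (median 0.44), and 2 were called. Of 5 tested hypothalamic markers 2 rose in F/M, where 2.63% of all genes were called higher. These were *Nr5a1* with a log2 fold change of 1.30 (FDR 0.024) and *Nkx2-1* with 0.65 (FDR 0.0099). *Nr5a1* had 12, 4 and 5 counts in F/M-N against 21, 15 and 16 in F/M-T and passed the filter only through F/M-T. The list summed to 8.54 to 9.98 CPM in F/M-N and 12.1 to 13.4 CPM in F/M-T. Serotonin neuron genes rose in the same libraries, *Slc6a4* with a log2 fold change of 5.43 (FDR 1.5e-12) and *Tph2* with 3.03 (FDR 2.5e-12), *Slc6a4* having passed the filter only through F/M-T, and the monoamine list summed to 57.6 to 59.7 and 77.3 to 84.2 CPM. Microglial markers rose in 5 of 10 cases, among them *Tyrobp* (1.38), *Cd68* (1.36), *Trem2* (1.12) and *Aif1* (1.02). Also called higher were 2 of 10 astrocyte markers, *Gfap* (1.76) and *Serpina3n* (1.38), and 1 of 9 tested Purkinje cell markers, *Ppp1r17* (0.97).

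A list of 6 olfactory bulb markers was added after the values were seen. Beside the fall of *Vipr2* and *Nmb*, all 6 fell in F/M, with log2 fold changes from -5.00 for *S100a5* to -1.07 for *Cdhr1*, and with sums of 40.6 to 41.9 CPM in N and 14.9 to 16.4 CPM in T. Of the 6, *S100a5*, *Omp* and *Tbx21* passed the filter only through F/M-N, which favours a fall. In Cb, where *Vipr2* fell too, the list cannot be read as olfactory bulb, since *Eomes* made up most of its sum. This gene had a mean of 52.9 CPM in Cb-N against 3.49 CPM in F/M-N. *Eomes* fell to 11.5 CPM in Cb-T (log2 fold change -2.20, FDR 4.0e-32). With it the sum went from 54.8 to 57.6 CPM in N to 15.4 to 17.3 CPM in T. *Cdhr1*, which passed the filter only through Cb-T, rose (2.47, FDR 8.7e-11). The 5 markers other than *Eomes* were higher in sum in T, at 2.83 to 3.70 CPM in N and 4.46 to 5.74 CPM in T. The part of olfactory bulb tissue, or of cells with *Eomes* in Cb, in the changes of *Vipr2* and the other members was not tested.

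The other genes of the pathway were taken from 3 lists. Of 51 peptide receptor genes outside the VIP/PACAP system, 34 were tested in Cb, 19 rose and 1 fell, with a median log2 fold change of 0.81, where 11.2% of all genes were called. Of the 34, 10 passed the filter only through Cb-T and all rose. Of the 24 that passed in Cb-N as well 9 rose and 1 fell, with a median of 0.29. The largest fitted rises were those of *Trhr2*, *Tacr3*, *Tacr1*, *Oprm1* and *Calcr*, receptors for TRH, neurokinin B, substance P, opioids and calcitonin. All 5 passed the filter only through Cb-T, which favours a rise. *Trhr2* had 1 count in all of Cb-N and 53 in Cb-T, a ratio of 48.5 with an exact 95% counting interval of 8.34 to 1950, and the log2 fold changes of the other 4 were 3.71, 2.60, 2.33 and 2.07. The receptor that fell was *Crhr1*, which codes for the main receptor of corticotropin-releasing hormone and had the most counts of the list in Cb-N, from a mean of 93.8 to 54.4 CPM (log2 fold change -0.78, FDR 9.3e-22). In F/M 1 of 43 tested was called, *Calcr* with a log2 fold change of 0.71, where 3.49% of all genes were called. Of 19 genes for peptide processing and secretion, 2 rose in Cb, *Ecel1* (3.46), a membrane endopeptidase, and *Qpct* (1.09), the glutaminyl cyclase that modifies peptide ends, while the median was 0.08. In F/M the log2 fold changes of these 19 genes lay between -0.54 and 0.41, all below the fold limit. Of 22 further peptide genes 6 were tested in Cb, and *Crhbp*, the binding protein of corticotropin-releasing hormone, rose by 5.12 on the log2 scale, having passed the filter only through Cb-T.

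Not every member could be tested. In Cb 16 members were below the filter, with 0 to 12 counts per library: besides those above, *Nms* had no count, and *Agrp*, *Nmu*, *Calcb*, *Npw*, *Npb*, *Rln3* and *Nppa* had at most 9. In F/M 9 members were below it, with 0 to 18 counts per library. Without the filter *Ucn*, *Trh*, *Rln3* and *Pmch* were called in Cb, and *Nppa*, *Ucn* and *Calcb* in F/M. *Rln3*, the relaxin-3 gene of a brainstem nucleus, had 1 count in all of Cb-N and 10 in Cb-T, a ratio of 9.15 with an exact 95% counting interval of 1.30 to 397.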

How the data were processed

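RNA of the Cb and F/M of 3 *Tpp1-/-* and 3 wild-type male mice of 4 months was extracted with TRIzol and cleaned on columns, and stranded mRNA libraries (12 in all) were read single-end at 50 bases. The authors aligned the reads to GRCm38 (mm10) with STAR, counted them per gene with featureCounts 1.26.1 and deposited the raw counts of each library, without normalization. The strand setting of the counting is not given in the sources used here.

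The deposited counts were fitted with edgeR 4.0.16 in R 4.3.3, with TMM factors, edgeR's filter on low counts (minimum count 10, total 15), quasi-likelihood F tests and Benjamini-Hochberg adjustment over all genes tested. T was compared with N in the 6 libraries of each area, Cb-N with F/M-N in the 6 control libraries, and the interaction was fitted on all 12. Genes were called at an FDR below 0.1 and a change of at least 1.5-fold, the limits of the study. Printed CPM use TMM factors over all 12 libraries, and the SE of a log2 fold change was derived from the F statistic. Fitted log2 values of genes with few counts depend on the prior count. The p-values cover the spread between 3 mice per genotype. Whether equally numbered libraries of the 2 areas came from 1 mouse is not stated.

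The members and lists were chosen with earlier results of these data known. Members called in either area or in the interaction and all VIP/PACAP genes were named with their library values. Other members were named with ranges, counts or fold changes, and some of them, such as *Cck*, *Penk*, *Chgb* and *Avp*, with library values too. Genes of other lists were named where called, at most 5 per list and area by size of change, and some of these are not reported here. *Crhr1*, *Bhlhe22*, *Ppp1r1b*, *Hdc* and *Otp* in Cb and *Cdhr1* in F/M fall outside this rule and were chosen after their values were seen. Exon lengths and overlaps came from GENCODE M21, and start regions from RefSeq on GRCm38.p6. Counts were simulated with the same dispersion for every gene, and 200 genes with a mean count of at least 50 were changed 2-fold. The test recovered 200 in Cb, 200 in F/M, 192 in the interaction and 200 between control areas, with 4, 3, 9 and 4 false calls. This recovery does not cover genes with fewer counts, such as *Vip* in Cb, or genes with a wider spread. Alternatives were DESeq2 1.42.0, limma-voom (limma 3.58.1), other size factors, filters and limits, a replicate block, 1 fit of all libraries, and leaving out each library.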

Additional observations from a re-analysis of the deposited data

Results flagged for a closer look

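For 17 members the log2 fold change of T against N in Cb differed from that in F/M in edgeR's interaction test over the 12 libraries, where 7.61% of all genes tested were called. The difference (Cb minus F/M) was 3.87 for *Pdyn*, 3.84 for *Vip*, 3.10 for *Trh*, 3.02 for *Tac1*, 2.54 for *Crh*, 1.95 for *Gal* and 1.92 for *Sst*. It was 1.63 for *Grp*, 1.52 for *Vgf*, 1.43 for *Cartpt*, 1.18 for *Pnoc*, 0.89 for *Nts*, 0.86 for *Adm*, 0.76 for *Scg2*, 0.70 for *Npy* and 0.69 for *Adcyap1*. *Gnrh1* was the 1 member with a negative difference, -1.40. For *Cartpt*, *Gnrh1* and *Adm* the call was lost without certain libraries, and for *Trh* the value rests on 1 control count and 12 counts in Cb-T.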

How the results depend on the processing

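The counts of called members (18 in Cb, 6 in F/M, 17 in the interaction, 32 between the control areas) kept within 1.5 times under every alternative run but 2. With a mean count of at least 50 the Cb count was 9, since fewer genes were tested, where 6.75% of all genes were called. Without a fold limit the F/M count was 16, and the share of all genes called in that run is not reported here. Without the filter on low counts 22 members were called in Cb, with *Ucn*, *Trh*, *Rln3* and *Pmch* added. There 8.22% of all genes were called, beside 11.2% in the main fit. Leaving out 1 library at a time gave 16 to 18 in Cb, 4 to 7 in F/M, 17 to 20 in the interaction and 32 to 34 between the control areas. Of the values of single members under the alternatives, 660 kept direction and side of the limit, 19 were no longer called and 3 changed sign, all 3 of them uncalled: *Vipr1* in Cb without Cb-T2 (-0.03, range -0.03 to 0.12 leaving out each library), *Adcyap1r1* in F/M in 1 fit of all libraries (-0.01) and *Adcyap1* in F/M without F/M-T1 (-0.04, range -0.04 to 0.14). The cause was not tested.

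Libraries of equal number did not deviate together, with correlations of -0.0024 to 0.052 between the areas and of -0.016 to 0.062 between T and N. The study describes the Cb and F/M of 3 mice per genotype, so the areas may share mice, but no source says which libraries pair. The main fits of the interaction and of the control areas treated the libraries as independent. With the replicate block 18, 6, 18 and 32 members were called. Members below the filter on low counts were not tested in the fits reported.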

Other observations

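*Chgb*, besides its lower level in Cb-T, was in F/M at 480, 469 and 481 CPM in N and 441, 422 and 438 CPM in T, groups that did not overlap, with a log2 fold change of -0.10 (FDR 0.017 by edgeR). *Ucn*, too low for the test in F/M, was at 0.0871, 0.225 and 0.765 CPM in F/M-N and at 0.0875, 0.124 and 0.0853 CPM in F/M-T, so that F/M-N3 stood above the other libraries. *Nppa*, the atrial natriuretic peptide gene, had 6, 9 and 17 counts in F/M-N and 6, 0 and 2 counts in F/M-T, with 61.5% of its exon bases shared with a gene on the opposite strand.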
